A study of Mus musculus with 7 samples.

Results

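Genes for CatSper subunits and other ion channels or exchangers of the sperm tail were followed in RNA of mouse sperm, 10 in all: Catsper1, Catsper2, Catsper3, Catsper4, Catsperb, Catsperd, Slc9c1, Kcnu1, Lrrc52 and Hvcn1. They were chosen by name. Each was read by 1 probe set annotated by the platform to that gene alone, so these 10 genes stand among 22154 gene symbols that were tested. A further probe set that Hvcn1 shares with another gene was not used.

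The sperm came from 3 groups of mice. TG3 males carried a KDM1A transgene, KDM1A being a histone lysine demethylase. The construct had been injected into zygotes of C57BL/6, 2 female founders were obtained, and heterozygous males mated to C57BL/6 females handed it down for 3 generations. nonTG3 males were their littermates without the transgene, so both groups of the line descend from transgenic fathers. C57BL/6 males came from outside the line. There were 3 arrays of TG3, 3 of nonTG3 and 1 of C57BL/6, each a pool of RNA extracts of sperm from 4 males (TG3, nonTG3) or 5 males (C57BL/6). Neither the promoter that drives the transgene nor the age of the males is stated in the labels. Nor do they state that each pool drew on other males, and p-values therefore measure the spread between pools, with no replicate of C57BL/6.

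CatSper is the calcium channel of the sperm tail. It is needed for hyperactivated swimming and male fertility, and alkaline pH inside the cell opens it. Its pore is built from CATSPER1, CATSPER2, CATSPER3 and CATSPER4, and CATSPERB and CATSPERD are auxiliary subunits that span the membrane. SLC9C1 is a sodium-proton exchanger specific to sperm, KCNU1 (SLO3) is the potassium channel of sperm that alkaline pH activates, LRRC52 is its auxiliary subunit, and HVCN1 is a voltage-gated proton channel. Mature sperm make little or no new RNA, and the RNA they carry is largely left from spermatids.

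Slc9c1 and Catsper3 were the genes called lower in the line than in C57BL/6 by the test below. Catsper2 is shown beside them because its readings lay close to those of C57BL/6. The 300 bases around the start of transcription of each, from 250 bases before to 50 after it, are given 5′ to 3′ from RefSeq (GRCm38.p6) with every CG dinucleotide in capitals. The windows lie at chr16:45535016-45535315 on the plus strand for Slc9c1, at chr13:55784329-55784628 on the plus strand for Catsper3 and at chr2:121413743-121414042 on the minus strand for Catsper2.
Slc9c1: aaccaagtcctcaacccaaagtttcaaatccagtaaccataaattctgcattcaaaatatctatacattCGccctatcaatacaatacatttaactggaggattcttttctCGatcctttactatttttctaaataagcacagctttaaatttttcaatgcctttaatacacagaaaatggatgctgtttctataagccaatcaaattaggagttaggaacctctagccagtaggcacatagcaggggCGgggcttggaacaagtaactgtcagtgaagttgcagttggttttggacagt
Catsper3: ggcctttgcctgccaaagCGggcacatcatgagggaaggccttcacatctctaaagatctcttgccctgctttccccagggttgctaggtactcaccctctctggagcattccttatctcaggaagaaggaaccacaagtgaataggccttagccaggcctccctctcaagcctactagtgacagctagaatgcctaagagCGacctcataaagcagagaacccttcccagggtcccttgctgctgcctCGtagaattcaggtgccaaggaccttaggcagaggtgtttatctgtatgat
Catsper2: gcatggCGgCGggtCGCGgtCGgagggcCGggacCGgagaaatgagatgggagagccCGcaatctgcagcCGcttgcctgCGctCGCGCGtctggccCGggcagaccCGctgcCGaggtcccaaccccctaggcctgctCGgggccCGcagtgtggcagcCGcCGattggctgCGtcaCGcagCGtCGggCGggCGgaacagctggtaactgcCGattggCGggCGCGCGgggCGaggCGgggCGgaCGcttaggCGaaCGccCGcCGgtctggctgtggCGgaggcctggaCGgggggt
The Slc9c1 and Catsper3 windows each hold 3 CG dinucleotides, at 37.3% and 52.3% G and C, whereas the Catsper2 window holds 41 at 74.7%. The table gave windows for 7 of the 10 genes, and had none for Catsper1, Kcnu1 or Hvcn1. The windows of Catsper4, Catsperb and Lrrc52 hold 2, 1 and 6 CG dinucleotides, and the pair listed for Catsperd hold 29 and 12. Over all 32851 windows of the table the median is 7, and 31.4% hold 3 or fewer. The cAMP response element TGACGTCA was found on neither strand in any of the 7 genes, against 1.79% of all windows. The shorter TGACG, which is part of it, was found in Catsper2 and Catsperd, against 20.8% of windows. GTTGCC, a part of the box bound by RFX factors, was in none of the 7, against 12.5% of windows. AACNGNC, which resembles the site of MYB factors, was in Catsper2, Catsperb, Catsperd and Slc9c1, against 32.8% of windows, and TATAAA was in none, against 13.6% of windows. Of 10 further genes listed for the CatSper complex, treated below, 8 had windows. GTTGCC was in 3 of these 8, AACNGNC in 2, TATAAA in 1 and TGACG in 0. These matches describe letters and not bound sites, and both strands were searched for each motif.

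Values are log2 intensities that the authors made with RMA, so a step of 1 is a doubling of the signal. Probe sets differ in brightness, so readings do not rank one gene's level above or below another's. Array medians lay between 3.52 and 3.61. On each array, 95% of the 1405 probe sets for olfactory and vomeronasal receptors, most of which sperm precursors do not use, read below 3.75 to 4.03, and readings in that range may be background. Of 14 measured markers of spermatids and sperm 13 lay above that mark on all arrays, from Smcp at 11.56 to 12.11 and Odf1 at 11.12 to 11.86 down to Spaca1, which read 4.14 to 4.39 in the line. Spam1, a hyaluronidase of the sperm surface, read 3.96 in C57BL/6 and 1.81 to 2.07 in the line, under the mark on all 6 of its arrays. Kdm1a read 5.64 in C57BL/6 and averaged 5.20 (SD 0.12, n = 3) in TG3 as in nonTG3 (5.20, SD 0.12, n = 3), and the labels do not tell whether its probe set reads the transgene's RNA. Mitochondrially encoded genes averaged 8.80 on TG3 replicate 1, 8.91 on nonTG3 replicate 3 and 9.98 on nonTG3 replicate 2, against 11.24 to 11.55 on the other 4 arrays.

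The line was first set against C57BL/6, which asks how sperm of the line, with or without the transgene, differ from sperm of mice outside it. Slc9c1 and Catsper3 were called lower, and the other 8 genes did not pass the test. The test was limma across all 23493 probe sets with 1 gene symbol, and a gene was called at a Benjamini-Hochberg adjusted p under 0.05. Of all probe sets, 3.02% were called, 2.85% lower and 0.17% higher, so 2 of 10 is above that share, but the genes are few and no test of the list was made. All 6 arrays of the line lay below C57BL/6 for 7 of the 10 genes, where 14.3% of all probe sets did so, and all 6 lay above it for 0 of the 10, where 18.2% of all probe sets did so. The median difference of the 10 genes was -0.75, against 0.04 for all probe sets. RNA of whole pools was measured, so fewer cells or remnants of a kind and less RNA in each cannot be told apart.

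**Figure D1:**
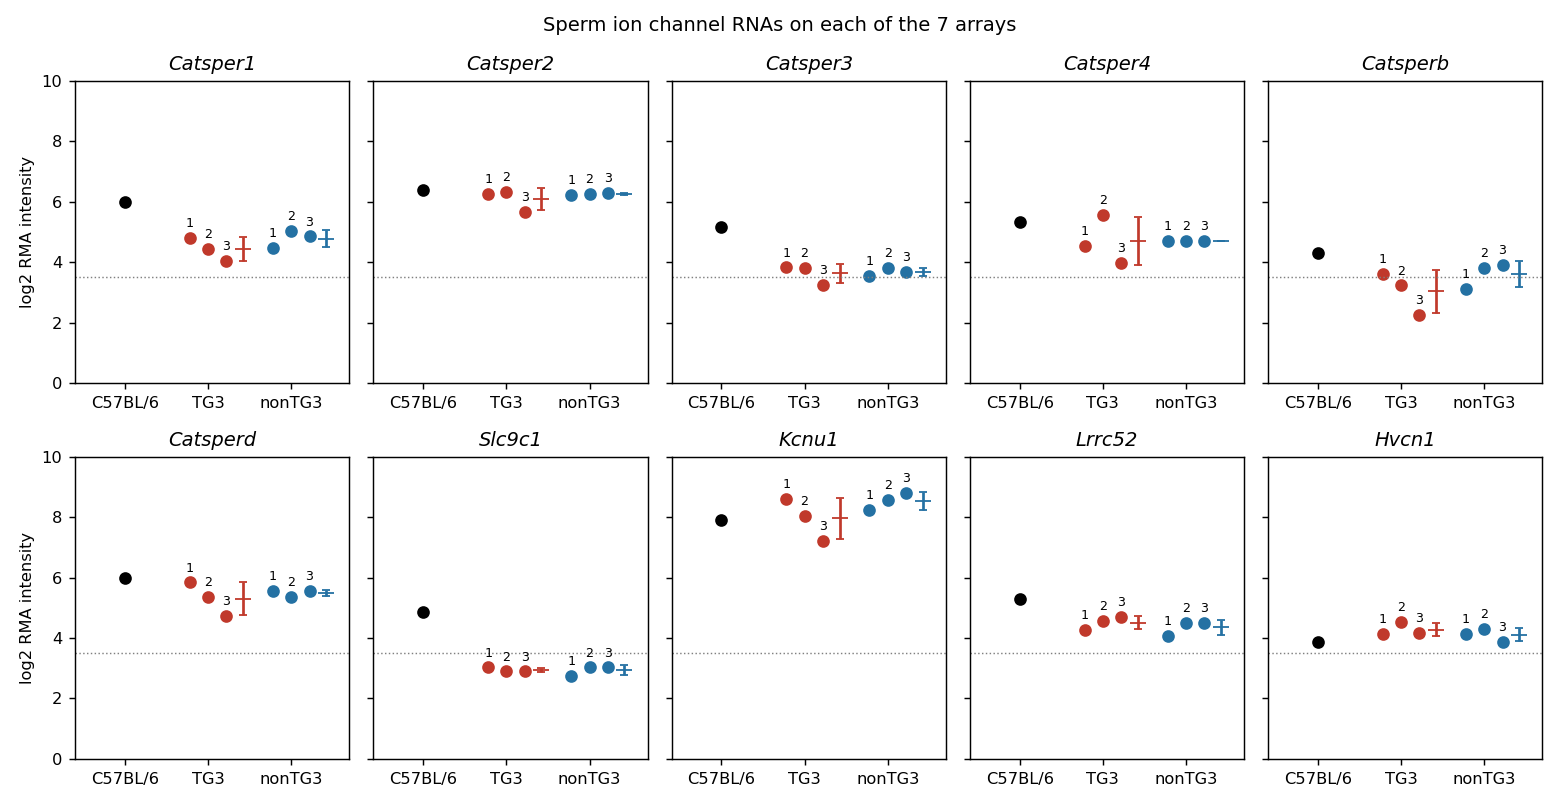
Log2 RMA intensity of the 10 genes on each array, with replicate numbers above the points, the mean and SD of TG3 (red) and nonTG3 (blue) as crosses with bars, C57BL/6 in black, and the lowest array median, 3.52, as a dotted line. Slc9c1 lies near 3 on all 6 arrays of the line against 4.86 in C57BL/6, and TG3 replicate 3 is the lowest array of the line for 7 genes.

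Of the 4 pore subunits Catsper3 passed the test, and whether the 4 genes differ from one another in their distance from C57BL/6 was not tested. Catsper3 read 5.18 in C57BL/6, 3.83, 3.80 and 3.26 in TG3 and 3.54, 3.80 and 3.68 in nonTG3, in the order of the replicate numbers, as for all genes here. Every array of the line was lower, and the readings differed by 1.53 ± 0.24 (SE) on average (limma adjusted p = 0.0366). Of the 6 Catsper3 readings in the line 5 lay under the 95% mark of the receptor probe sets and may be background, so no fold is given. When single arrays of the line were left out, Catsper3 lost its call in 5 of 6 fits, at an adjusted p of 0.0718 without TG3 replicate 1 to 0.109 without nonTG3 replicate 3, and kept it without TG3 replicate 3 (0.0238).

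Catsper1, whose product carries a long histidine-rich tail inside the cell, read 6.01 in C57BL/6, 4.82, 4.46 and 4.05 in TG3 and 4.48, 5.03 and 4.86 in nonTG3. All 6 arrays of the line were lower and the difference was -1.39 ± 0.32 (SE), but it did not pass the test (limma adjusted p = 0.115). Catsper4 read 5.35 in C57BL/6, 4.54, 5.57 and 3.99 in TG3, and exactly 4.72 on all 3 nonTG3 arrays, so the nonTG3 spread of this gene is 0. TG3 replicate 2 lay above C57BL/6, and the difference of -0.64 ± 0.52 (SE) did not pass (limma adjusted p = 0.883).

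Catsper2 gave the smallest difference of these 4. It read 6.39 in C57BL/6, 6.27, 6.33 and 5.68 in TG3 and 6.24, 6.27 and 6.29 in nonTG3. Its difference was -0.22, with a 95% interval of -0.83 to 0.39 (limma adjusted p = 1). The interval allows a fall of up to 0.83 and does not show that the level was the same.

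Differences between a pair of probe sets on the same array are given as a description. Catsper3 minus Catsper2 was -1.21 in C57BL/6 and -2.70 to -2.42 on the 6 arrays of the line. All 6 lay below C57BL/6, TG3 replicate 3 included. Catsper1 minus Catsper2 was -0.39 in C57BL/6 and -1.87 to -1.24 in the line, again with no overlap. These pairs were chosen after their values were seen, there is 1 array of C57BL/6, and Catsper3 may be at background in the line, so they were not tested and add no support to the values above.

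**Figure D2:**
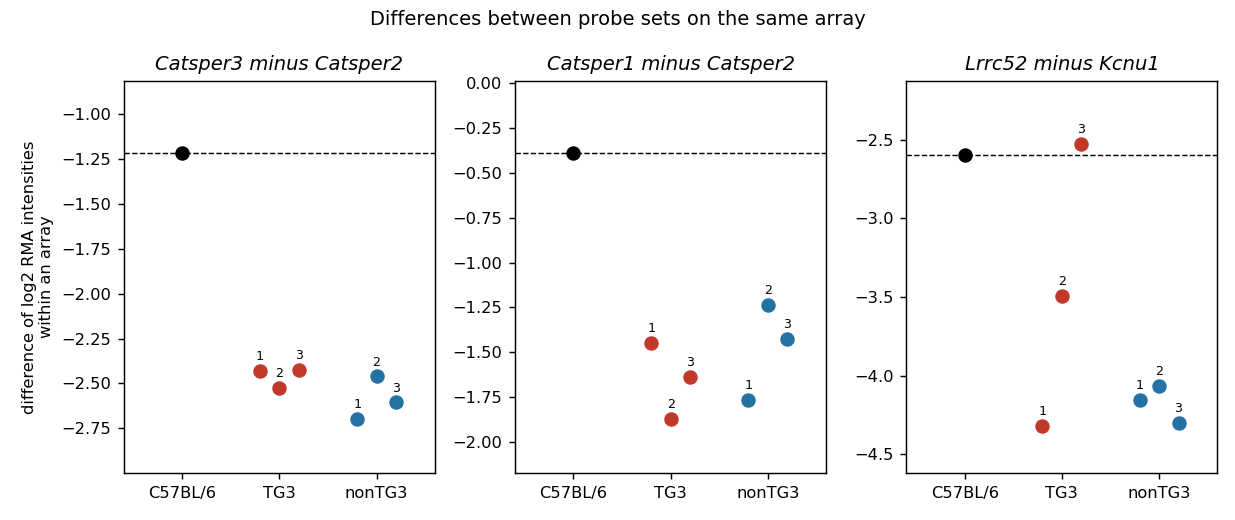
Difference between the log2 RMA intensities of a pair of probe sets on the same array, one panel a pair with its own scale, replicate numbers above the points and the C57BL/6 value as a dashed line. The first pair of panels show all 6 arrays of the line below C57BL/6, and in the third TG3 replicate 3 lies at -2.53, just above the C57BL/6 value of -2.60.

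The auxiliary subunits read lower in the line without passing the test. Catsperb read 4.32 in C57BL/6, 3.61, 3.23 and 2.26 in TG3 and 3.13, 3.82 and 3.91 in nonTG3 (limma adjusted p = 0.609). Catsperb lay under the receptors' 95% mark on all 6 arrays of the line, so no difference is given. Catsperd read 6.00 in C57BL/6, 5.84, 5.35 and 4.73 in TG3 and 5.55, 5.37 and 5.55 in nonTG3. All 6 arrays lay below C57BL/6, and the difference of -0.60 ± 0.37 (SE) did not pass (limma adjusted p = 0.715).

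The exchanger Slc9c1 gave the clearest difference of the 10. It read 4.86 in C57BL/6, 3.03, 2.89 and 2.89 in TG3, and 2.75, 3.03 and 3.03 in nonTG3 (limma adjusted p = 0.00434). The 6 arrays of the line lay within 0.28 of one another and far below C57BL/6. They held 3 distinct values, which narrows the spread the test uses, and all lay under the receptors' 95% mark and under the lowest array median, so readings and no fold are given. Slc9c1 was called in each of the 6 fits without 1 array (adjusted p of 0.0127 to 0.0230). TG3 replicate 1 and nonTG3 replicate 3 held the least mitochondrial RNA, and without both neither Slc9c1 (0.0849) nor Catsper3 (0.194) was called, nor was any other probe set, with 2 residual degrees of freedom left. The difference of Catsper3 was then -1.58.

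Kcnu1 and Lrrc52 encode the pore and the auxiliary subunit of 1 potassium channel, and neither passed the test. Kcnu1 read 7.90 in C57BL/6, 8.60, 8.05 and 7.23 in TG3 and 8.23, 8.57 and 8.81 in nonTG3. Of the 6 arrays of the line 5 were above C57BL/6, and the difference of 0.35 ± 0.49 (SE) did not pass (limma adjusted p = 1). Lrrc52 read 5.30 in C57BL/6, 4.28, 4.55 and 4.70 in TG3 and 4.07, 4.51 and 4.51 in nonTG3. All 6 arrays were lower, and the difference of -0.87 ± 0.23 (SE) did not pass (limma adjusted p = 0.166). Within arrays Lrrc52 minus Kcnu1 was -2.60 in C57BL/6 and -4.32 to -2.53 in the line, lower on 5 of 6 arrays and not on TG3 replicate 3, and the difference between the genes was not tested.

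Hvcn1 read 3.88 in C57BL/6, 4.14, 4.53 and 4.16 in TG3 and 4.14, 4.30 and 3.88 in nonTG3. The readings of C57BL/6 and nonTG3 replicate 3 lay in the range of the receptors' 95% mark, 3.75 to 4.03, and may be background. Hvcn1 was the gene besides Kcnu1 with a higher mean in the line, by 0.31 ± 0.22 (SE), and it did not pass (limma adjusted p = 0.787). Leukocytes also express Hvcn1. Their 15 measured markers of 16 listed averaged 3.41 in C57BL/6, 3.47 to 3.76 in TG3 and 3.29 to 3.57 in nonTG3, with 0 called. Of the defining markers Ptprc read 2.96 to 3.25 and Cd3e 1.94 on every array, under the receptors' 95% mark, while Cd68 read 4.82 to 5.01. C1qb, at 4.34 to 4.93, also lay above the mark on all arrays. Lyz2 and S100a8 ranged from 2.02 to 5.09 and from 3.15 to 6.05, on both sides of it. The part of leukocytes in the Hvcn1 reading was not tested.

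**Figure D3:**
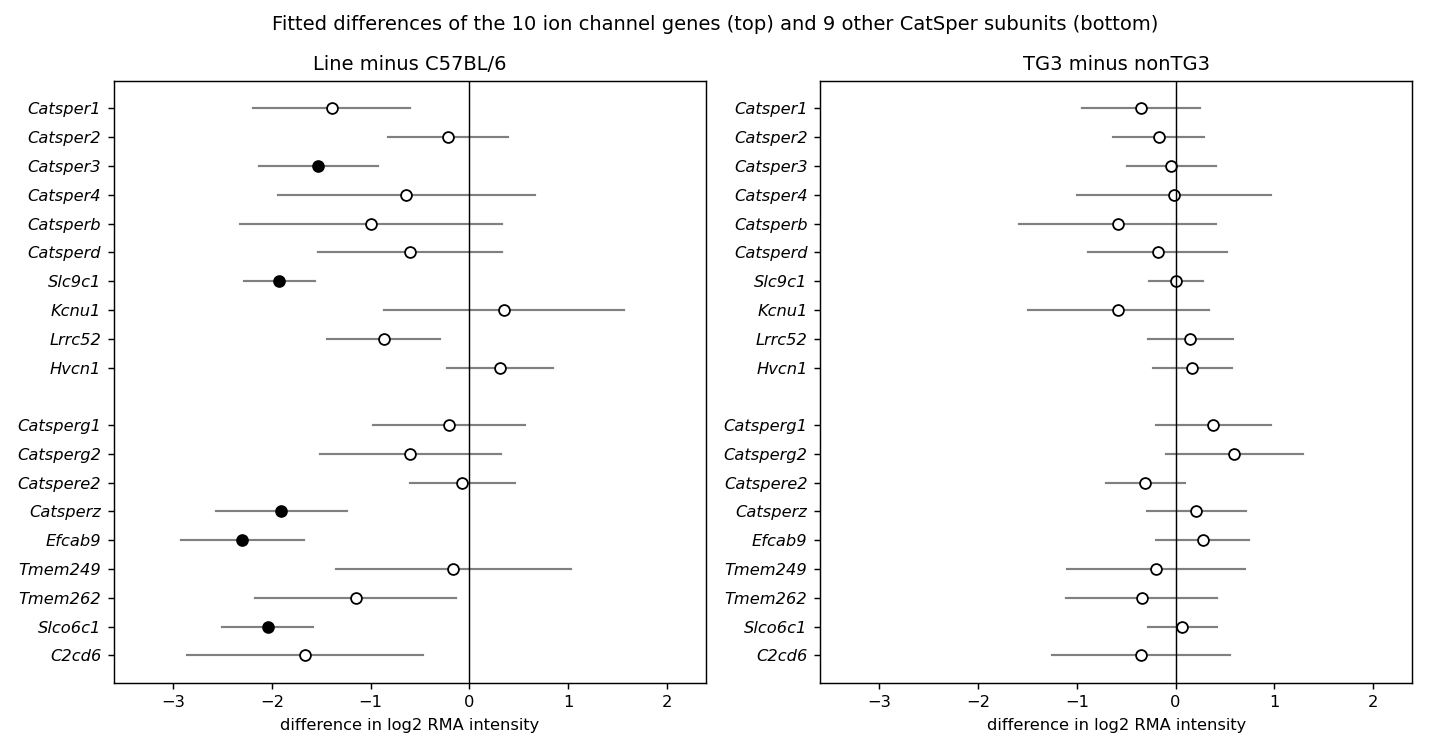
Fitted differences in log2 RMA intensity (points) with 95% intervals from limma (lines) for the 10 ion channel genes and 9 other CatSper subunits, on the left the line minus C57BL/6 and on the right TG3 minus nonTG3. Filled points passed an adjusted p of 0.05: Catsper3, Slc9c1, Catsperz, Efcab9 and Slco6c1 on the left and none on the right.

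TG3 was next set against nonTG3, which asks how the channels differ with the transgene among littermates. No gene of the 10 passed, the smallest unadjusted p was 0.172 (Kcnu1), and limma called 0% of all probe sets, with 559 of 23493 at an unadjusted p under 0.05. TG3 and nonTG3 overlapped for all 10 genes, where 1.65% of probe sets lay apart with TG3 lower and 2.47% with TG3 higher. Kcnu1 and Catsper1 gave differences of -0.58 and -0.35, with 95% intervals of -1.50 to 0.34 and -0.95 to 0.25. Slc9c1 averaged 2.94 in both groups, with an SD of 0.08 (n = 3) for TG3 and 0.16 (n = 3) for nonTG3. For Catsper3 the interval was -0.50 to 0.41 and for Catsper2 -0.63 to 0.29. For Catsperd it ran from -0.88 to 0.52, and Catsper4 differed by -0.02 ± 0.40 (SE). The intervals of Lrrc52 and Hvcn1 were -0.28 to 0.58 and -0.23 to 0.58.

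Of the 10 means 7 were lower in TG3, and 1 array stood low for most of them. TG3 replicate 3 alone was the lowest array of the line for 7 genes, the 4 pore subunits, Catsperb, Catsperd and Kcnu1, where it was so for 19.2% of all probe sets and for 26% of the brighter ones, whose mean reached the table's median. Each of the other 5 arrays was alone lowest for 13.6 to 16.3% of all probe sets, and for 10.8 to 17.6% of the brighter ones. Its median deviation from the mean of the line was -0.53 over the 10 genes, against -0.08 to 0.14 on the other 5 arrays and 0.00 for all probe sets on that array. Kcnu1 stood 1.02 below its mean in the line there, while Lrrc52 was 0.26 above and read highest on that array. Catsperb stood 1.07 below its mean there, at readings that may be background. Without TG3 replicate 3 the median difference of the 10 genes between TG3 and nonTG3 was 0.04 in place of -0.11, and Catsper2, Catsper3, Catsper4 and Catsperd averaged higher in TG3, by 0.03 to 0.34, with none called. Its mitochondrial genes averaged 11.51, where the other 5 ranged from 8.80 to 11.55, and its spermatid markers 7.75, against 7.75 to 7.92. Its meiotic and spermatogonia markers averaged 3.93 and 3.99, against 4.26 to 4.72 and 4.13 to 4.46. Their part in the low channel readings was not tested.

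**Figure D4:**
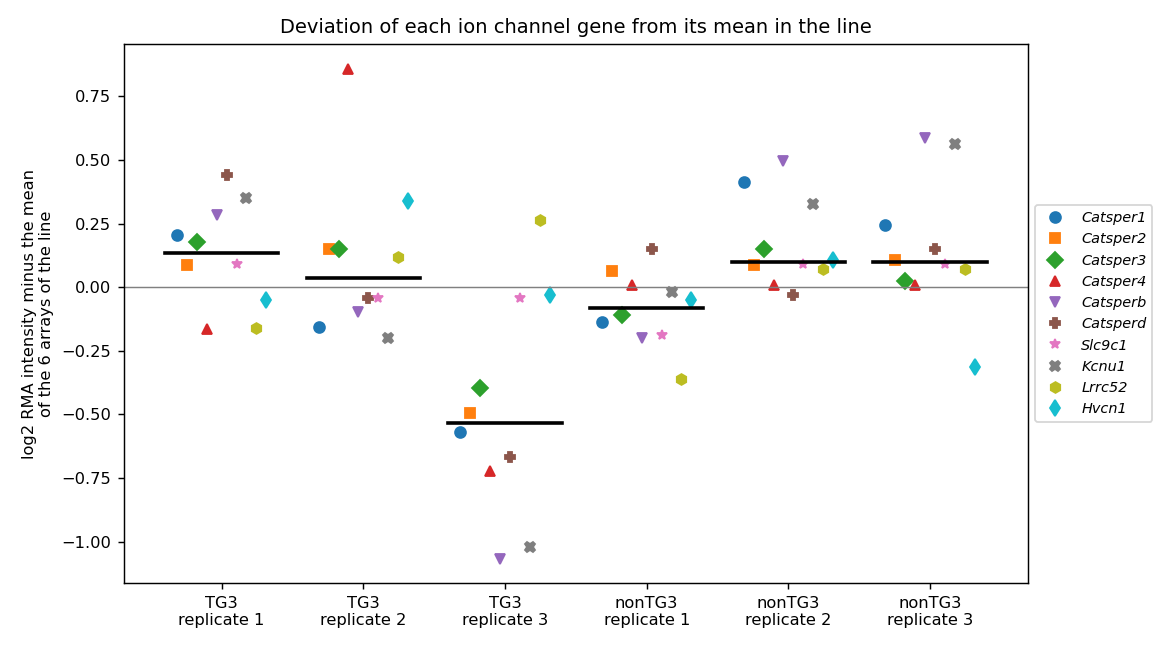
Log2 RMA intensity of each gene minus its mean over the 6 arrays of the line, by array, with the median over the 10 genes as a black bar. On TG3 replicate 3 the median is -0.53 and 9 of the 10 genes lie below their mean, and Lrrc52 lies above it.

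The comparisons of each group with the same C57BL/6 array share that array, so their values are given side by side and not as repeats of one another. Slc9c1 was called for TG3 (limma adjusted p = 0.00616) and for nonTG3 (limma adjusted p = 0.00596). Catsper3 was -1.55 ± 0.26 (SE) in TG3 (limma adjusted p = 0.0477) and -1.51 ± 0.26 (SE) in nonTG3 (0.0532), on either side of the threshold. The share of all probe sets called was 2.53% in both comparisons, with 2.41% lower and 0.119% higher for TG3 and 2.43% lower and 0.0936% higher for nonTG3. Catsper1 was -1.57 in TG3 and -1.22 in nonTG3 (limma adjusted p of 0.106 and 0.208), and Kcnu1 was 0.06 and 0.64 (1 and 0.863).

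Of 10 further genes listed for the CatSper complex 9 were read, and 3 were called lower in the line, where 2.85% of all probe sets were. The median difference of the 9 was -1.15, against 0.04 for all probe sets. Catsperz and Efcab9 encode partners, EFCAB9 being a calcium-binding protein held to the channel through CATSPERZ. Catsperz read 8.65 in C57BL/6 and averaged 6.74 (SD 0.27, n = 6) in the line, where no array passed 7.06, a fall of 3.74-fold (limma adjusted p = 0.0249). For Efcab9 C57BL/6 stood at 6.40 and the line at 4.10 ± 0.27 (SD, n = 6), with no array above 4.38, a fall of 4.92-fold (limma adjusted p = 0.0118). Catsperz lay above the receptors' mark on every array. In the line Efcab9 read 3.62 to 4.38, close to that mark and under it on 1 array, so its fold may be limited by background. Slco6c1, a transporter found with the complex, read 5.18 in C57BL/6 and 2.82 to 3.24 over the 6 arrays of the line (limma adjusted p = 0.00665). All 6 readings of Slco6c1 in the line lay under the receptors' mark and may be background. Of these 3 were equal, which narrows the spread the test uses.

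The other 6 genes of the complex did not pass. C2cd6 and Tmem262 read 6.70 and 6.77 in C57BL/6 and 5.03 ± 0.50 and 5.62 ± 0.44 (SD, n = 6) in the line, every array lower (limma adjusted p of 0.204 and 0.324). Tmem249, Catspere2 and Catsperg1 differed by -0.16, -0.07 and -0.20, and Catsperg2 by -0.60, each overlapping C57BL/6. Catsperg1 and Catsperg2, like Catspere2 and Catspere1, are close copies and may share probes. Efcab9 and Slco6c1 were called in all 6 fits without 1 array, and Catsperz in 1 of 6, with adjusted p up to 0.0848 without nonTG3 replicate 3. Between TG3 and nonTG3 0 of the 9 passed, and Catsperg2 had the smallest unadjusted p of them, 0.0802.

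Among 25 measured genes of 26 listed for other ion and water transport 3 were called lower, where 2.85% of all probe sets were. The list as a whole was centred on C57BL/6, with a median of 0.04, against 0.04 for all probe sets. Slc9b1, a sodium-proton exchanger of the sperm tail, read 5.61 in C57BL/6 against a mean of 4.11 over the line (SD 0.07, n = 6; limma adjusted p = 0.00434). On 4 of the 6 arrays of the line Slc9b1 read the same value, which narrows the spread the test uses. Aqp7, a water and glycerol channel, read 5.69 and 4.58 ± 0.04 (SD, n = 6; limma adjusted p = 0.00602), with equal values on 3 of the 6 arrays. Pkdrej, a polycystin of the sperm head, read 4.05 and 3.47 ± 0.05 (SD, n = 6; limma adjusted p = 0.0490), and lost its call in each of the 6 fits without 1 array, at 0.0592 to 0.112. All 6 readings of Pkdrej in the line lay under the receptors' mark and may be background, and 3 of them were equal. Atp1a4, the sperm sodium pump, differed by -0.11 and Cftr, a chloride and bicarbonate channel, by 0.18, neither called.

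Of 21 measured genes of 22 listed for cAMP and calcium signalling 4 were called lower, where 2.85% of all probe sets were. The median of this list was -0.64, against 0.04 for all probe sets. Ppp3r2, the testis regulatory subunit of calcineurin, read 6.45 in C57BL/6 against a mean of 3.69 over the line (SD 0.16, n = 6; limma adjusted p = 0.00335), under the receptors' mark on 5 arrays. Pde1a, a phosphodiesterase controlled by calmodulin, read 5.49 and 4.01 ± 0.13 (SD, n = 6; limma adjusted p = 0.0102). Its readings in the line, 3.80 to 4.19, were close to the receptors' mark and under it on 1 array. Plcz1, the sperm phospholipase that starts calcium waves in the egg, read 6.21 and 4.82 ± 0.15 (SD, n = 6; limma adjusted p = 0.0178). Ropn1l, a protein of the tail's radial spokes and sheath, read 8.43 and 6.66 ± 0.22 (SD, n = 6; limma adjusted p = 0.0178). Plcz1 lost its call in 3 of the 6 fits, the highest adjusted p being 0.0578 when TG3 replicate 1 was left out. Ropn1l lost its call in 4, with 0.0583 when TG3 replicate 3 was left out. Adcy10, the adenylyl cyclase that bicarbonate activates in sperm, read 5.78 and 4.91 ± 0.59 (SD, n = 6; limma adjusted p = 0.673).

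Markers of spermatids, which carry these channels' RNA, and of other cells of the testis were set beside the channels in the same comparison. Over all probe sets 2.85% were called lower and 0.17% higher, with a median of 0.04. Of 14 measured spermatid and sperm markers 8 were called lower in the line, with a median of -1.39. The mean of these 14 was 9.18 in C57BL/6 against 7.75 to 7.92 in the line. Of 11 meiotic markers 5 were called lower, with a median of -1.89 and a mean of 6.13 against 3.93 to 4.72. Of 14 Sertoli and Leydig markers 5 were called lower and 5 read higher without a call, with a median of -0.08, although their mean was 4.41 against at most 3.42. Cst9, a marker called lower, stood at 7.66 in C57BL/6 against a mean of 2.94 over the line. Of 10 spermatogonia markers 0 were called, with a mean of 4.26 against 3.99 to 4.46. Genes listed as epididymal markers held 1 called lower and 1 called higher among 14. The lower one, Defb19, read 9.18 in C57BL/6 and 2.84 to 2.95 in the line, with the smallest limma adjusted p of all probe sets, 4.89e-05. The higher one, Lcn8, read 2.45 and 3.07 to 3.25, under the receptors' 95% mark on all 7 arrays, and may be background. The part of these shifts in the channel readings was not tested.

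Over the 7 arrays the genes whose values were most like the mean of the 10 channel genes were Chn1 (Pearson's r = 0.991), Lrriq3 (0.989), Crls1 (0.987), Nup205 (0.987) and Efhb (0.986). Efhb encodes a protein inside the microtubules of the axoneme. Lrriq3 read 5.61 in C57BL/6, 4.89, 4.79 and 3.78 in TG3 and 4.38, 4.86 and 4.85 in nonTG3, so it too was lowest on TG3 replicate 3. Each of the 5 was lower than C57BL/6 on all 6 arrays of the line and lowest on that array, and none was called (limma adjusted p of 0.162 to 0.458). They were picked for likeness to a mean that is highest in C57BL/6 and lowest on TG3 replicate 3, so this pattern follows from the choice. Chn1 lay under the receptors' mark on all 7 arrays and may be background. The correlations describe 7 arrays of which 1 stands apart, and carry no test.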

How the data were processed

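Sperm RNA of 7 pools was measured on expression arrays after amplification with an Affymetrix whole-transcript kit, per the labels' protocols. The deposited values are log2 intensities from RMA (background correction, quantile normalization, median polish), for which the submitters' processing notes list oligo and limma in R 3.1.0. Neither labels nor file headers name filters, a genome build or scan batches.

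Among 33604 probe sets, 23493 had 1 gene symbol in the platform annotation and were tested, 1801 had several and 8310 had none. Entrez identifiers matched 23300 of them to RefSeq names (GRCm38.p6). The main test was limma 3.58.1 with a mean for every group over all 7 arrays, run in R 4.3.3 (eBayes, 4 residual and 1.65 prior degrees of freedom), with p-values adjusted by Benjamini-Hochberg over all tested probe sets. The spread comes from TG3 and nonTG3, and the lone C57BL/6 array is assumed to vary like them. On the 6 arrays of the line 30.9% of tested probe sets took at most 4 distinct values. The line is the mean of TG3 and nonTG3.

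The genes and lists were chosen with earlier results of these data known. Named were the 10 genes, all listed CatSper subunits, up to 6 called genes of the other lists, and the 5 genes most like the mean of the 10, while Atp1a4, Cftr and Adcy10 were chosen after their values were seen. Of several probe sets for a listed gene, the brightest on average was read. In the text a log2 difference between groups is given for a gene where both means reached the lowest array median, 3.52. Exceptions are the sign changes of Slc9c1 between TG3 and nonTG3. Medians over a list and the figure of fitted differences use every gene measured. The fit was tested on simulated data in which 100 of 23493 probe sets were lowered. For the line minus C57BL/6 it called 0 of the 100 lowered by 1 and 54 of the 100 lowered by 2. For TG3 minus nonTG3 it called 28 and 82. Genes that did not pass may therefore still differ, above all against C57BL/6. Alternatives in normalization, filter, prior, threshold and arrays left out are given at the end. Protein patterns planned for the channels were not searched, as protein sequences were not used here. Precision is limited by the number of arrays. Figures were drawn with matplotlib 3.10.9.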

Additional observations from a re-analysis of the deposited data

Results flagged for a closer look

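Catsper2 on TG3 replicate 3 read 5.68, and the nearest of the other 5 arrays of the line, nonTG3 replicate 1, read 6.24. This gap is 0.867 of the whole range of the line, above Dixon's 95% critical value for 6 samples. The rule was applied to the 10 genes over the 6 arrays of TG3 and nonTG3 together, since groups of 3 are too small for it, and chance flags about 1 in 20 such groups. The same array was the lowest of the line for 6 other genes of the 10.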

How the results depend on the processing

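The lone C57BL/6 array limits every comparison with it. Slc9c1 was called lower in the line in 14 of the 15 alternatives that tested it, the exception being the fit without both arrays of lowest mitochondrial RNA. Catsper3 lost its call in the line in 7 of 16. Counts of called channel genes for the line, TG3 and nonTG3 against C57BL/6 were 2, 2 and 1. Leaving out 1 array gave 1 to 2 for each, 2 to 3 for other CatSper subunits, 2 for other transporters, 2 to 4 for signalling genes, and 0 for TG3 minus nonTG3. Without both arrays of lowest mitochondrial RNA all 6 counts against C57BL/6 were 0, where 2 residual degrees of freedom remain and 0 of 23493 probe sets were called (smallest adjusted p = 0.0520). The TG3 count was 1 after a repeated quantile normalization, over all probe sets of the table, with the filter on dim probe sets and at an adjusted p under 0.01, and the line's count was 1 with that filter, which removes Slc9c1 and Catsperb, and at that threshold. Fitted with the groups compared alone both the TG3 and the nonTG3 count were 0. The nonTG3 count was 2 with median centring, cyclic loess, a trend and robust prior, array weights and at an adjusted p under 0.10, through Catsper3. At an adjusted p under 0.01 the counts for other CatSper subunits and signalling genes were 1 each.

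Same-numbered TG3 and nonTG3 arrays did not deviate together (r of -0.45, 0.02 and -0.40 over probe sets), so the numbers were not taken as pairs. With the replicate block the count for TG3 minus nonTG3 was 0, and no call changed. Some uncalled differences changed sign. For TG3 minus nonTG3, Slc9c1, 0.003 over all arrays, was -0.0062 with median centring, -0.0067 with cyclic loess, -0.031 with array weights, and -0.042 and -0.090 without TG3 replicate 1 and nonTG3 replicate 1. The means of Slc9c1 lay under the lowest array median in both groups, so these values may be background. Catsper4 was 0.28 with array weights, 0.060 without TG3 replicate 1 or both low arrays, and 0.34 without TG3 replicate 3. Without TG3 replicate 3, Catsper2, Catsper3 and Catsperd were 0.033, 0.14 and 0.11, and Catsper3 was 0.020 without nonTG3 replicate 2. Kcnu1 in TG3 minus C57BL/6 was -0.065 with cyclic loess and -0.26 without TG3 replicate 1 or both low arrays, and Catsper2 in nonTG3 minus C57BL/6 was 0.013 after the repeated quantile normalization. Over the fits without 1 array the other ends of these ranges were -0.29 for Catsper2, -0.14 for Catsper3, -0.45 for Catsper4, -0.45 for Catsperd and 0.049 for Slc9c1 in TG3 minus nonTG3, and 0.42 for Kcnu1 in TG3 minus C57BL/6. The cause was not tested.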

Other observations

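Other ion transporters differed among the arrays of the line in more than 1 way, in genes chosen after their values were seen. Cftr read 6.10 on TG3 replicate 3 but 7.25 to 8.21 elsewhere in the line, and Atp1a4 read 6.98 there and 7.68 to 8.24 elsewhere, as did Trpm8, a cation channel, with 5.16 against 5.57 to 6.74. The pair of arrays with least mitochondrially encoded RNA, nonTG3 replicate 3 and TG3 replicate 1, instead gave the lowest readings of 3 other transport genes. How many of all probe sets were lowest on this pair was not counted, and a link to mitochondrial RNA was not tested. Atp2b4, a plasma membrane calcium pump, read 4.84 and 5.52 on these and 6.51 to 7.15 on the other 4 of the line. Ano1, a chloride channel activated by calcium, read 4.93 and 5.67 against 6.49 to 6.96. Slc26a3, an anion exchanger, read 3.60 and 3.74 against 4.82 to 5.54.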
